A study of Sus scrofa with 6 samples.

Results

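The enzymes of fatty acid oxidation were examined in longissimus muscle of pigs (Sus scrofa) with high or low intramuscular fat, the fat stored between and within the bundles of fibres of a muscle. The members were all records of the deposited table whose gene name belongs to a fixed set of oxidation families: the carnitine shuttle (CPT1, CPT2, SLC25A20), the acyl-CoA dehydrogenases, the hydratases, dehydrogenases and thiolases that follow, the electron transfer flavoproteins, the auxiliary enzymes for unsaturated chains, the peroxisomal oxidases, the acyl-CoA thioesterases, HIBADH and UCP3. ACAD10 was left out by the rule. This gave 35 of the 7661 records, under 33 different symbols. The name pattern also took in ETF1, a translation termination factor that shares only its first letters with the flavoproteins. It was kept in the counts so that every record is accounted for.

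Whole muscle was sequenced in 6 libraries, 3 labelled high and 3 labelled low intramuscular fat, from 3 pigs per group according to the design text. The labels give no breed, sex, age, diet or measured fat content, and the animals in both groups carry no stated treatment. Values are counts per 1000000 reads of the library (CPM), scaled by the trimmed mean of M values (TMM). They are not divided by transcript length, so levels are compared between libraries and not between genes. Log2 fold changes are high minus low, with their standard error (SE).

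A fatty acid enters the mitochondrion as an acylcarnitine, made by a CPT1 enzyme on the outer membrane, carried across the inner membrane by SLC25A20 and turned back into acyl-CoA by CPT2. Each round of beta-oxidation then removes an acetyl unit through a dehydrogenase, a hydratase, a second dehydrogenase and a thiolase, while the flavoprotein ETFA/ETFB and its oxidoreductase ETFDH pass the electrons of the first step to ubiquinone. Peroxisomes run a similar route with ACOX oxidases for very long and branched chains. In skeletal muscle the mitochondrial route is a main source of energy at rest and is most developed in oxidative fibres.

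The libraries held 25371989 to 34813172 reads, and each member was counted with at least 186 reads in every library. The skeletal muscle markers found by name (8 records of 11 markers, ACTA1 and CKM among them) summed to 61447 to 71008 CPM in the high and 58272 to 74286 CPM in the low libraries. Of the 10 fat cell marker records, 9 had a higher mean in the high group, 6 of them at an unadjusted p under 0.05, with a median log2 fold change of 1.04. PLIN1, which coats lipid droplets, was the one that passed (log2 fold change 2.75, SE 0.32; adjusted p = 0.0404, edgeR quasi-likelihood). Every listed record has a CPM above 10 in at least 3 libraries, and PLIN1, CIDEA and CIDE-C reached this only in the high ones. Their direction follows from that, so the counts and the median that include them are no test of a difference. The 10 records summed to 1005 to 1299 CPM in the high and 819 to 975 CPM in the low libraries, and GPD1, at 606 and 555 CPM on average, made up much of these sums. All 12 connective tissue records had a higher mean in the high group, and their sums were 3415 to 4527 against 1487 to 3022 CPM. The 7 slow fibre records summed to 7674 to 10617 and 5802 to 14031 CPM, so the groups overlapped. In 6 of them the mean was lower in the high group (median log2 fold change -0.21). Of 6 fast fibre records, 5 had a higher mean in the high group (median 0.16), and their sums also overlapped. No record of either fibre list had an unadjusted p under 0.05. The part of these other cells and fibres in any value below was not tested, and in whole muscle fewer cells of a type and less RNA per cell cannot be told apart.

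High library 2 stood apart for these enzymes. It had the lowest value of the 6 libraries in 18 of the 35 members (51.4%), against 18.6% of all records. It was also the lowest in 14 of 18 records of the tricarboxylic acid cycle and in 17 of 20 nuclear-encoded respiratory chain records.

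None of the 35 members passed an adjusted p of 0.05 in edgeR's quasi-likelihood test (Benjamini-Hochberg adjustment over all records), and 0.144% of all records did. At an unadjusted p under 0.05, 5 members were lower in the high group (14.3%, against 8.41% of all records) and 2 were higher (5.71%, against 10.3%). In 6 members all high libraries lay below all low libraries (17.1%, against 13.3% of all records), and in 4 all lay above (11.4%, against 13.5%). The mean was lower in the high group in 22 members (62.9%, against 54.8% of all records). ACOT8 is among the lower members in each of these counts, though it was listed only through the low libraries (see the thioesterases). The shares are near those of the whole table.

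The median log2 fold change of the members was -0.10, beside -0.04 for all records, and the median absolute change was 0.20 beside 0.21. Without high library 2 the members' median was 0.01. The changes ran from -0.56 for ACOT8 to 0.90 for ECHDC1. The summed CPM of the members was 2786, 2431 and 2592 in high libraries 1 to 3 and 2899, 2807 and 2565 in low libraries 1 to 3. The mean sum was 2603 ± 178 (SD, n = 3) against 2757 ± 172 (SD, n = 3), a difference smaller than the spread within either group. UCP3 alone had 548, 427 and 263 CPM in low libraries 1 to 3 (SD 143), so this 1 record set much of the spread of the low sums.

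**Figure D1:**
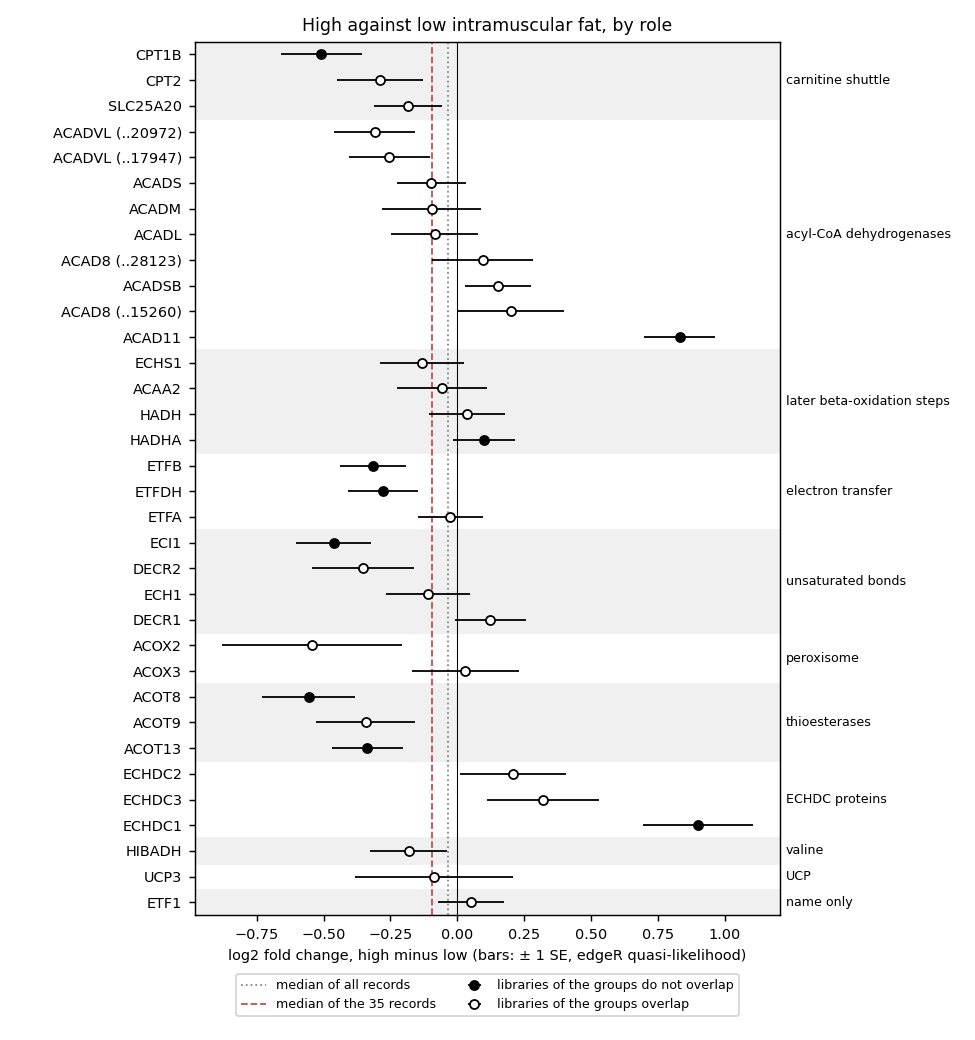
Log2 fold change (high minus low intramuscular fat, x axis) of 34 oxidation records, grouped by role in rows, with bars of ± 1 SE from edgeR's quasi-likelihood fit. Filled points are records whose groups do not overlap, and vertical lines mark 0, the median of all records (dotted, -0.04) and the median of the members (dashed, -0.10). ACAD11 and ECHDC1 lie farthest to the right at 0.83 and 0.90, and ACOT8 lies farthest to the left at -0.56.

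The 3 members of the carnitine shuttle were all lower on average in the high group, and none passed the adjusted test. CPT1B, the muscle form of carnitine palmitoyltransferase 1 and the step at which malonyl-CoA restrains oxidation, stood at 49.7, 42.9 and 44.0 CPM in high libraries 1 to 3 and at 53.7, 73.1 and 67.5 CPM in low libraries 1 to 3. Every low library lay above every high library, low library 1 by the least. CPT1B had a log2 fold change of -0.51 (SE 0.15, 95% interval -0.86 to -0.16), with an unadjusted p of 0.0106 and an adjusted p of 0.162 in edgeR's quasi-likelihood test.

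CPT2 stood at 19.6, 15.0 and 15.3 CPM in the high and 22.5, 20.3 and 18.2 CPM in the low libraries. Low library 3 lay within the high range, which high library 1 set. Its log2 fold change was -0.29 (SE 0.16; adjusted p = 0.36, edgeR quasi-likelihood). SLC25A20, the carrier, had 33.8, 30.6 and 32.7 CPM against 40.5, 36.6 and 33.1 CPM, with overlap between high library 1 and low library 3 and a log2 difference of -0.18 (SE 0.13; adjusted p = 0.458, edgeR quasi-likelihood), which was -0.09 without low library 1. The sum of the 3 records was 103, 88.5 and 92.0 CPM in the high and 117, 130 and 119 CPM in the low libraries, which did not overlap. An unnamed record, ENSSSCG00000012880, is CPT1A in the name tables, the form of the enzyme that predominates in liver. It stood at 22.8, 23.5 and 20.3 CPM against 27.5, 35.1 and 21.2 CPM, and the groups overlapped. CPT1A had a log2 fold change of -0.33 (SE 0.19), and -0.13 without low library 2.

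Among the 9 acyl-CoA dehydrogenase records, ACAD11 had the lowest adjusted p of all members. ACAD11 acts on long chains and on hydroxylated acids. Its record (ENSSSCG00000011629, chromosome 13 from 81305209 to 81403413 in the coordinates of the deposited table) stood at 31.2, 37.6 and 33.4 CPM in the high and 17.7, 19.1 and 20.7 CPM in the low libraries. Every high library lay well above every low library. The means were 34.1 ± 3.25 and 19.2 ± 1.48 CPM (SD, n = 3), a 1.78-fold difference. The log2 fold change was 0.83 (SE 0.13, 95% interval 0.52 to 1.14; adjusted p = 0.0727, edgeR quasi-likelihood), which missed the threshold. It passed in DESeq2 (adjusted p = 1.9e-05) and in edgeR's exact test (adjusted p = 0.00964), and the adjusted p was 0.064 to 0.265 in the other alternatives tried with edgeR or limma-voom. The log2 value was 0.75 to 0.90 with any 1 library left out, and 0.64 once the trend of the fold changes with the length of the locus was removed. CCRL1, a receptor gene on the opposite strand, lies wholly within the ACAD11 locus (5140 bases) and was higher in the high group, by a log2 value of 1.61 with SE 0.32 and an adjusted p of 0.104 in the same edgeR quasi-likelihood test. The strand setting of the counting is not given in the sources used here, so reads from that stretch cannot be assigned to either gene.

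The dehydrogenases that open each round of mitochondrial oxidation had overlapping groups and did not pass the test. ACADM, for medium chains, stood at 263, 208 and 314 CPM in the high and 309, 287 and 242 CPM in the low libraries. The ranges overlapped, and the log2 fold change was -0.10 (SE 0.18, 95% interval -0.52 to 0.33; adjusted p = 0.794, edgeR quasi-likelihood). The log2 fold changes of ACADL (long chains) and ACADS (short chains) were -0.08 (SE 0.16) and -0.10 (SE 0.13).

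ACADVL, for very long chains, stood on a pair of records. The one on chromosome 3 (ENSSSCG00000020972) had 162, 127 and 129 CPM in the high and 157, 194 and 166 CPM in the low libraries, and the one on chromosome 12 (ENSSSCG00000017947) had 112, 88.6 and 88.7 against 107, 130 and 108 CPM. High library 1 overlapped the low group in both. The log2 fold changes were -0.31 (SE 0.15) and -0.25 (SE 0.15), and -0.16 and -0.10 once the trend with locus length was removed. The chromosome 12 value was -0.15 without low library 2. The deposited descriptions cite the same protein entry for both records, the genes beside them (GABARAP among them) are present on both chromosomes, and the ratio of their counts was 1.43 to 1.54 in every library. They can share reads and are not separate evidence.

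The remaining dehydrogenase records act mainly on branched-chain amino acid products. ACADSB, for short branched chains, had a log2 fold change of 0.15 (SE 0.12). ACAD8, the isobutyryl-CoA dehydrogenase of valine breakdown, stood on 2 records with 0.20 (SE 0.20) and 0.10 (SE 0.19). The second of these, ENSSSCG00000028123, is VPS26B in the Ensembl name table. The first, ENSSSCG00000015260, lies wholly (6865 bases) within an unnamed record on the opposite strand and shares 963 bases with THYN1. Reads from these stretches cannot be assigned to a single gene.

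**Figure D2:**
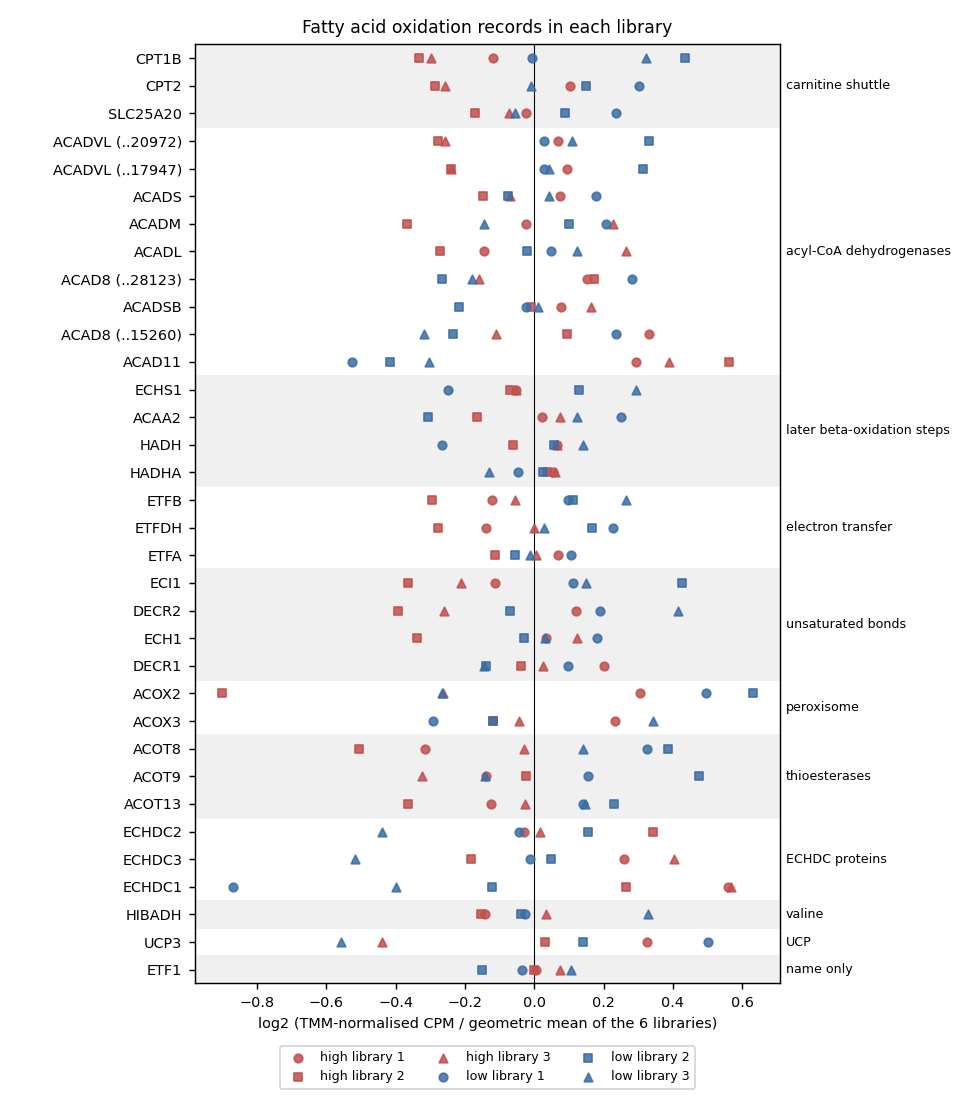
TMM-normalised CPM of 34 oxidation records (rows, grouped by role) in each of the 6 libraries, as the log2 difference from the mean log2 CPM of that record (x axis). Color gives the group and shape the library number, and high library 2 (red square) lies farthest to the left in 18 of the rows.

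The 4 members of the later mitochondrial steps had 2 higher and 2 lower means in the high group, and none passed the test. HADHA, the subunit of the trifunctional protein with hydratase and dehydrogenase activity for long chains, stood at 187, 184 and 187 CPM in the high and 174, 183 and 164 CPM in the low libraries. The groups did not overlap, though low library 2 came close to the high group. The log2 fold change was 0.10 (SE 0.12, 95% interval -0.17 to 0.37; adjusted p = 0.657, edgeR quasi-likelihood), and it was -0.08 once the trend with locus length was removed.

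The partner subunit HADHB is listed as LCTHIO, outside the name rule, and stood at 256, 188 and 207 CPM in the high and 227, 268 and 196 CPM in the low libraries. Its groups overlapped, and the log2 fold change was -0.09 (SE 0.17). HADHA and LCTHIO lie on opposite strands of chromosome 3 and overlap by 330 bases, so reads from the overlap cannot be assigned to either.

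ECHS1, the short-chain hydratase, stood at 73.6, 72.7 and 73.5 CPM in the high and 64.1, 83.4 and 93.5 CPM in the low libraries. The high libraries were almost equal (coefficient of variation 0.656%), whereas the low ones varied by 18.5% and lay on both sides of them. HADH, the short-chain hydroxyacyl-CoA dehydrogenase, and ACAA2, the mitochondrial thiolase, had overlapping groups and log2 fold changes of 0.04 (SE 0.14) and -0.06 (SE 0.17).

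The 3 electron transfer members were lower on average in the high group, and none passed the adjusted test. ETFB, the beta subunit of the flavoprotein, stood at 35.3, 31.3 and 37.0 CPM in the high and 41.2, 41.6 and 46.2 CPM in the low libraries. The groups did not overlap, and ETFB differed by a log2 fold change of -0.32 (SE 0.12; unadjusted p = 0.0366, adjusted p = 0.239, edgeR quasi-likelihood).

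ETFDH, the oxidoreductase of the inner membrane, also had no overlap, with 166, 151 and 183 CPM against 214, 205 and 186 CPM. High library 3 and low library 3 came close. Its log2 fold change was -0.28 (SE 0.13; adjusted p = 0.305, edgeR quasi-likelihood). ETFA, the alpha subunit that pairs with ETFB, stood at 153, 135 and 146 CPM against 157, 140 and 144 CPM, with a log2 fold change of -0.03 (SE 0.12). The ratio of ETFB to ETFA, chosen after the values were seen, averaged 0.239 ± 0.0123 over the high and 0.293 ± 0.0289 over the low libraries (SD, n = 3), without overlap. For 3 libraries a side, the smallest p an exact permutation test can give is 0.1.

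Of the 4 members that handle unsaturated chains, 3 had lower means in the high group. ECI1, the mitochondrial isomerase that moves a double bond into position for the hydratase, stood at 42.0, 35.3 and 39.2 CPM in the high and 49.1, 61.0 and 50.4 CPM in the low libraries. The low libraries were all higher, with a log2 fold change of -0.46 (SE 0.14; unadjusted p = 0.0114, adjusted p = 0.166, edgeR quasi-likelihood). The RefSeq table also names this record (ENSSSCG00000024587) ECI1, whereas the Ensembl name table calls it DNASE1L2.

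ECI2, the second isomerase, is present under its older name PECI and so fell outside the name rule. Its record (ENSSSCG00000001000, chromosome 7 from 2506301 to 2523592) stood at 30.0, 27.97 and 30.9 CPM in the high and 44.0, 45.8 and 49.7 CPM in the low libraries. No library of one group came near the other group. The log2 fold change was -0.65 (SE 0.12, 95% interval -0.92 to -0.38; adjusted p = 0.091, edgeR quasi-likelihood), and the adjusted p was 0.000338 in DESeq2 and 0.0351 in edgeR's exact test, against 0.0706 to 0.291 in the other alternatives. PECI shares 7059 of its 17292 bases with C6ORF201 on the opposite strand, which also had a log2 fold change of -0.65 (SE 0.12), and reads from the shared stretch cannot be assigned to either.

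DECR2, the peroxisomal dienoyl-CoA reductase, had a log2 fold change of -0.35 (SE 0.19), which was -0.22 without low library 3. The others were ECH1, a dienoyl-CoA isomerase, at -0.11 (SE 0.16), and DECR1, the mitochondrial reductase, at 0.12 (SE 0.13). The whole ECH1 locus (11858 bases) lies within that of LGALS7 on the opposite strand.

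Of the peroxisomal oxidases, ACOX2, for branched chains and bile acid precursors, varied by 40.5% within the high group (19.9, 8.63 and 13.4 CPM) and stood at 22.7, 25.0 and 13.4 CPM in the low libraries, with overlap. Its log2 fold change was -0.54 (SE 0.34), but -0.29 without high library 2 and -0.88 without high library 1. That of ACOX3 was 0.03 (SE 0.20). The peroxisomal thiolase ACAA1 is listed as ACAA, outside the name rule, and had 16.8, 20.03 and 29.4 CPM against 13.9, 13.0 and 14.6 CPM. High library 3 set much of that difference. The log2 fold change was 0.68 (SE 0.21; adjusted p = 0.18, edgeR quasi-likelihood) and 0.42 without high library 3.

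Thioesterases release the free acid from acyl-CoA, and the 3 members were all lower on average in the high group. ACOT8, of the peroxisome, stood at 8.07, 7.07 and 9.83 CPM in the high and 12.6, 13.1 and 11.1 CPM in the low libraries. The groups did not overlap, and the log2 fold change was -0.56 (SE 0.18; unadjusted p = 0.0141, adjusted p = 0.18, edgeR quasi-likelihood). Every listed record has a CPM above 10 in at least 3 libraries, and ACOT8 reached this only in the low ones. Its direction and lack of overlap follow from that and are no test of a difference. ACOT13, a thioesterase associated with mitochondria, had 22.1, 18.7 and 23.7 CPM against 26.6, 28.3 and 26.7 CPM, again without overlap. Its log2 fold change was -0.34 (SE 0.13; unadjusted p = 0.0361, adjusted p = 0.239, edgeR quasi-likelihood) and -0.19 once the trend with locus length was removed. The mitochondrial ACOT9 had a log2 fold change of -0.34 (SE 0.19), which was -0.17 without low library 2. Together the 3 records summed to 44.4 ± 2.41 CPM in the high and 57.9 ± 5.76 CPM in the low group (SD, n = 3).

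The enoyl-CoA hydratase domain proteins were the only family with more than 1 member in which every mean was higher in the high group. ECHDC1, a decarboxylase that removes ethylmalonyl-CoA, a by-product of fatty acid synthesis, had the largest fold change of all members. Its record (ENSSSCG00000004216, chromosome 1 from 39565183 to 39593566) stood at 27.6, 22.5 and 27.8 CPM in the high and 10.3, 17.2 and 14.2 CPM in the low libraries. All high libraries lay above all low ones. The difference was 1.87-fold, or 0.90 as log2 (SE 0.21, 95% interval 0.42 to 1.38; adjusted p = 0.113, edgeR quasi-likelihood). The adjusted p was 0.00389 in DESeq2 and 0.0176 in edgeR's exact test, against 0.0889 to 0.291 in the other alternatives. ECHDC3 and ECHDC2 had log2 fold changes of 0.32 (SE 0.21) and 0.21 (SE 0.20), and neither passed the test. Without low library 3 they were 0.17 and 0.07.

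**Figure D3:**
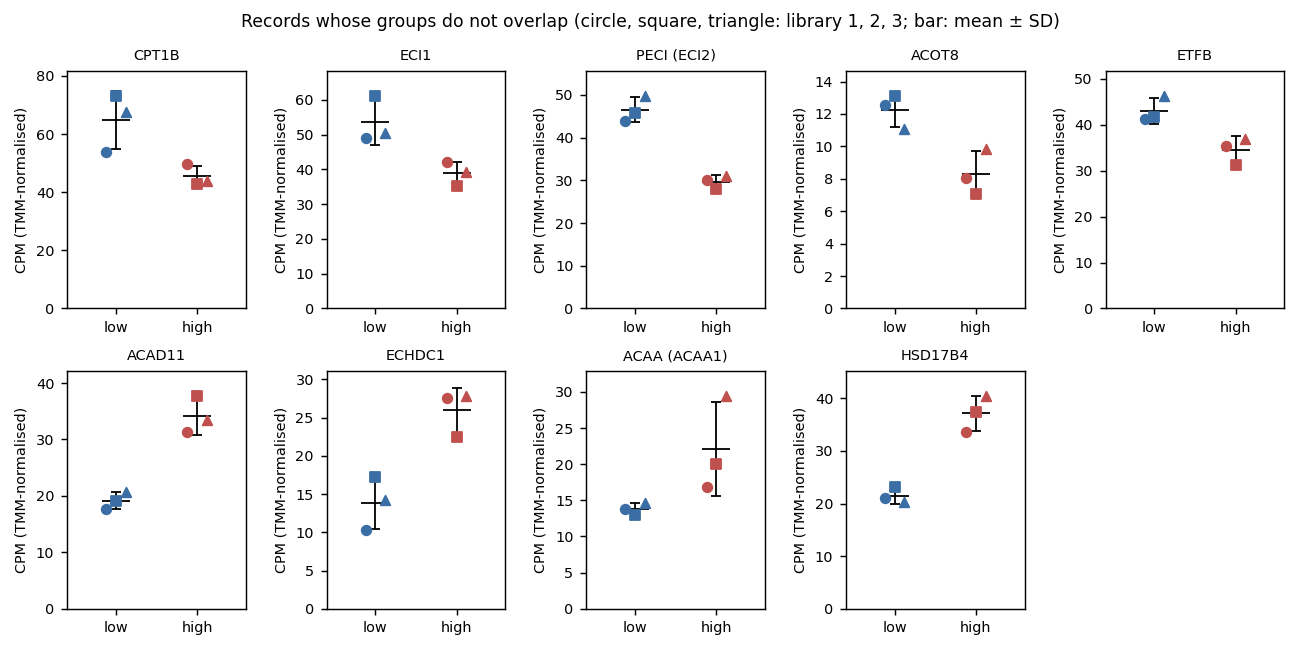
TMM-normalised CPM (y axis, from 0) in the low and high libraries for 9 records whose groups did not overlap: CPT1B, ECI1, PECI, ACOT8 and ETFB with lower, and ACAD11, ECHDC1, ACAA and HSD17B4 with higher values in the high group. Points are single libraries and bars are the mean ± SD of 3. PECI, ACAA and HSD17B4 lie outside the name rule, and ACAD11 is the member with the widest separation relative to its spread. ACOT8 was listed only through its low libraries, so its lack of overlap follows from the listing.

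UCP3, a carrier of the inner mitochondrial membrane found mainly in skeletal muscle, varied more within the groups than between them. It stood at 485, 396 and 286 CPM in the high and 548, 427 and 263 CPM in the low libraries. The coefficient of variation was 25.6% and 34.7%. The log2 fold change of -0.09 (SE 0.30, 95% interval -0.77 to 0.60) ran from -0.32 to 0.18 as single libraries were left out. HIBADH, the 3-hydroxyisobutyrate dehydrogenase of valine breakdown, had a log2 fold change of -0.18 (SE 0.15), which was -0.05 without low library 3. An unnamed record on the same chromosome, ENSSSCG00000029589, is also HIBADH in the RefSeq table. Its groups overlapped, and its log2 fold change was -0.13 (SE 0.14). ETF1, the translation factor, had 0.05 (SE 0.12).

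The authors' deposited table gave a false discovery rate under 0.05 for 2 of the members, ACAD11 (0.00964) and ECHDC1 (0.0176). Neither reached an absolute log2 fold change of 1 in it. edgeR's exact test called 4.12% of all records and DESeq2 called 6.76%, and each called the same number of members, 2. The exact test run here repeats the deposited values: over the members the log2 fold changes differed by at most 1.25e-08. The exact test and the authors' false discovery rates are therefore not separate evidence.

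Genes around the pathway were described from lists. Of 13 records for fatty acid activation and carnitine handling, 8 were lower and 5 higher on average, with a median log2 fold change of -0.08. At an unadjusted p under 0.05, a record of the long-chain acyl-CoA synthetase ACSL5 (log2 fold change -0.71, SE 0.23) was lower. So was a record of the fatty acid binding protein FABP3 (-0.61, SE 0.23), and the fatty acid transporter CD36 was higher (0.54, SE 0.19). The second records of ACSL5 (-0.41, SE 0.24) and FABP3 (-0.63, SE 0.28) had overlapping groups and did not reach that p. The FABP3 record that did reach it overlapped too, with 92.3 CPM in high library 1 against 91.5 CPM in low library 3. None of these ACSL5, FABP3 and CD36 records passed the adjusted test.

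The 10 peroxisomal partner records were split evenly in direction, with a median of 0.07. HSD17B4, the peroxisomal enzyme that carries out the hydratase and dehydrogenase steps after ACOX, stood at 33.6, 37.4 and 40.4 CPM in the high and 21.0, 23.1 and 20.2 CPM in the low libraries. The groups were well separated, and the log2 fold change was 0.79 (SE 0.13; adjusted p = 0.0761, edgeR quasi-likelihood). The outcome depended on the test, as the adjusted p was 3.4e-05 in DESeq2. HSD17B4 was the only record of this list with an unadjusted p under 0.05.

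Of the 7 ketone and propionyl-CoA records, 4 were lower and 3 higher. BDH1, the mitochondrial hydroxybutyrate dehydrogenase, stood at 17.5, 15.5 and 13.1 CPM in the high and 25.6, 34.3 and 25.0 CPM in the low libraries, with no overlap. Its log2 fold change was -0.88 (SE 0.18; adjusted p = 0.104, edgeR quasi-likelihood), and the adjusted p was 0.00198 in DESeq2. Of the 12 records for branched-chain amino acid breakdown, 7 were lower and 5 higher, and MCCC2 (0.42) and HSD17B10 (-0.31) had an unadjusted p under 0.05.

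The 16 regulator records were also split evenly. SIRT3, a deacetylase of mitochondrial enzymes, stood at 8.44, 7.68 and 9.10 CPM in the high and 14.2, 20.4 and 31.3 CPM in the low libraries. The low libraries were all higher and spread widely. SIRT3, like ACOT8, had a CPM above 10 only in the low libraries, so its direction and lack of overlap follow from how records were listed. Its log2 fold change was -1.38 (SE 0.28; adjusted p = 0.104, edgeR quasi-likelihood). ESRRA, a nuclear receptor that activates oxidation genes, had 114, 85.5 and 94.4 CPM against 153, 147 and 152 CPM, which is a log2 difference of -0.62 (SE 0.14; adjusted p = 0.113, edgeR quasi-likelihood). ANGPTL4, a secreted inhibitor of lipase that is induced by fatty acids, had 19.5, 26.0 and 22.1 CPM against 29.9, 42.0 and 60.4 CPM (log2 fold change -0.97, SE 0.26). None of the regulators passed the adjusted quasi-likelihood test. In other tests the adjusted p was 0.00573 for ESRRA (DESeq2) and 0.0140 for ANGPTL4 (edgeR's exact test). Among all records, 8.41% were lower and 10.3% higher at an unadjusted p under 0.05. At that p, 4 of the 16 regulators were lower, among them SIRT3, whose direction follows from its listing, and 3 were higher. The others, named after their values were seen, were PDK2 (-0.45, SE 0.15), and on the higher side PPARA (0.80, SE 0.34), the nuclear receptor for fatty acids, PRKAA2 (0.44, SE 0.16) and RXRB (0.38, SE 0.14).

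The other mitochondrial genes gave the setting for the low values of high library 2. Of 18 tricarboxylic acid cycle records 16 were lower on average in the high group (median -0.16), and of 20 nuclear-encoded respiratory chain records 19 were lower (median -0.21). Without high library 2 these were 13 of 18 (median -0.10) and 19 of 20 (median -0.12), and without low library 1 they were 12 of 18 (median -0.09) and 18 of 20 (median -0.14). None of these records passed the adjusted test. Divided by the tricarboxylic acid cycle sum, the members' sum without ETF1 came to 0.693, 0.732 and 0.705 for high libraries 1 to 3 and to 0.665, 0.732 and 0.609 for low libraries 1 to 3, and these overlapped. Mitochondrially encoded records took 7.08, 6.99 and 11.5 percent of the reads in the high and 12.7, 8.96 and 8.06 percent in the low libraries.

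**Figure D4:**
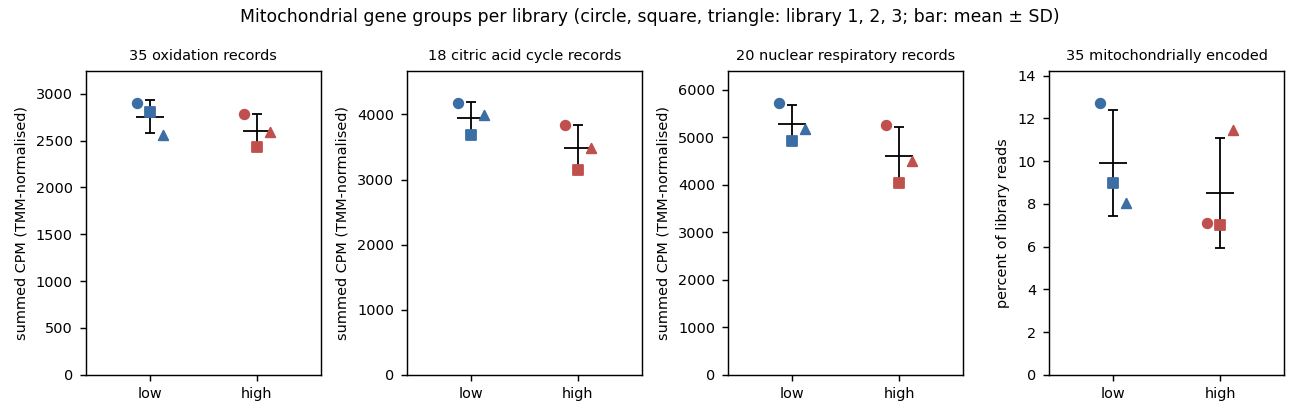
Summed TMM-normalised CPM (y axis, from 0) of the 35 oxidation records, 18 tricarboxylic acid cycle records and 20 nuclear respiratory chain records, and the percent of library reads from 35 mitochondrially encoded records, by group. Points are libraries and bars are the mean ± SD of 3. High library 2 (square) is the lowest in all 4 panels, in the last one just below high library 1, and the groups overlap in all 4.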

How the data were processed

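RNA was extracted from longissimus muscle with TRIzol and made into TruSeq libraries, per the labels' protocols. FastQC 0.10.1, Trimmomatic 0.22, TopHat2 2.0.4 and BWA 0.6.2 were used, per the submitters' processing notes. How reads were counted, on which strand and against which genome build and annotation is not given in the sources used here. The deposited table of the authors holds whole-number read counts and CPM per library, and every record has a CPM above 10 in at least 3 libraries. The authors' deposited log2 fold changes and p-values run from high to low and were used only where named.

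Counts were tested here with edgeR 4.0.16 (R 4.3.3): TMM, filterByExpr (7661 records kept), the quasi-likelihood F-test without covariates, and Benjamini-Hochberg adjustment over all records at 0.05. SE is the absolute log2 fold change over the square root of F. Alternatives were other size factors, other filters, DESeq2 1.42.0, limma-voom 3.58.1, edgeR's exact test, a replicate block, removal of mitochondrially encoded records, removal of the trend with locus span, and each library left out; setting the median of all records to 0 was added after seeing the data. The fit was tested on simulated data. The p-values set the difference between the groups against the spread between these libraries.

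Members and lists were chosen with earlier results of these data known. A member is given with all library values where it leads its role, its groups do not overlap or its unadjusted p is under 0.05. So are members for a step named in the background. Exceptions, given by log2 fold change and SE, include HADH, ACAA2, ACADL, ACADS, ACOX3, HIBADH and ETF1. From each list of genes around the pathway up to 3 records by smallest p are named, and further regulators after their values were seen. The tricarboxylic acid cycle and respiratory chain lists are given by counts and medians. Names were compared with Ensembl and RefSeq (Sscrofa11.1) tables: 31 of the 35 members had an Ensembl name, 29 of them the same one. Of the members, 1 is counted but not reported here by itself.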

Additional observations from a re-analysis of the deposited data

How the results depend on the processing

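The number of members called was 0 in the quasi-likelihood test, 2 in DESeq2 and 2 in edgeR's exact test, and 0 in all other alternatives. Of all records, 11 were called, against 518 in DESeq2, 316 in the exact test, 2 when the fit had a replicate block, and 1 to 30 with single libraries left out (1 without low library 2, 2 without high library 2, 30 without low library 1). The cause was not tested. Whether the replicate numbers pair the animals cannot be told from these values. Same-numbered libraries deviated together with r = 0.118, 0.0312 and -0.0815, and no member was called with or without the block. The members' median log2 fold change ran from -0.14 (without high library 3) to 0.00912 (without high library 2) with single libraries left out.

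Of the 35 members, 12 changed sign under some alternative, and none of these had an absolute log2 fold change above 0.133. With the trend of locus span removed, HADHA became -0.0798, HADH -0.0825, ECHS1 0.00902, UCP3 0.0146 and ECH1 0.000713. With the median of all records at 0, ETFA became 0.0110. With single libraries left out the log2 fold change ranged from -0.0832 to 0.239 for ACOX3, from -0.0591 to 0.0367 for ETFA, from -0.247 to 0.0452 for ACADM, from -0.205 to 0.0733 for ACAA2 and from -0.260 to 0.0218 for ACADL. It ranged from -0.203 to 0.0167 for ECH1, from -0.322 to 0.184 for UCP3, from -0.0610 to 0.125 for HADH, from -0.00949 to 0.125 for ETF1, from -0.00848 to 0.2997 for the second ACAD8 record and from -0.211 to 0.0372 for LCTHIO. Leaving out 1 library moved the log2 fold change of 24 of the 35 members by more than 1.5 times, and of none of the 7 with an unadjusted p under 0.05. Every member had at least 186 reads in each library, and the common biological coefficient of variation was 20.7%.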
